A study of Drosophila melanogaster with 3 samples.

Results

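Of the 2475 reproducible binding peaks of the homeodomain protein NK7.1 in Drosophila melanogaster embryos, 415 had their summit inside the body of a protein-coding gene more than 1000 and up to 5000 bp from the nearest protein-coding transcription start site (TSS). They are called gene-body peaks here. The reproducible list had itself been made by the authors from the pooled signal and the agreement of the replicates, and only position chose the 415 within it. The lowest signal was 92.5 in that list, against 26.9 in the pooled list. For comparison, 1526 reproducible peaks lay within 1000 bp of a protein-coding TSS and are called promoter peaks, and 252 lay in a gene body more than 5000 bp from any such TSS and are called deep gene-body peaks. The other 282 lay outside these classes.

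The study mapped NK7.1 by chromatin immunoprecipitation with sequencing (ChIP-seq) in 1 group of 3 biological replicates. The embryos were 0 to 24 h old, whole, of both sexes together, and came from a stable transgenic line that makes NK7.1 with eGFP at its C-terminus. Chromatin was sonicated and precipitated with an antibody to GFP according to the sample description, while the antibody field names NK7.1. Embryos of an untagged line and input chromatin were not analysed here. NK7.1 signal comes from all cells of the embryo together, so cell types cannot be told apart.

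NK7.1 belongs to the NK family of homeodomain transcription factors, whose homeodomain contacts short AT-rich core words. In flies, introns close to the 5' end of a gene often hold enhancers and alternative promoters, so a peak downstream of a start can belong to either. A peak summit is the base of highest ChIP signal, and the sequence around it is where the bound words are usually sought.

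The sequences at the strongest gene-body peaks were rich in A and T. Windows of 50 bp on either side of the summit are printed for the 8 peaks of highest signal whose windows lay wholly in introns on 2L, 3L, 3R or X. They are dm6 plus-strand reference sequence from RefSeq. Capitals mark the 9 6-mers that were more frequent at the summits of the gene-body peaks than in their flanks, on either strand, as described further on.
ush chr2L:481032-481132: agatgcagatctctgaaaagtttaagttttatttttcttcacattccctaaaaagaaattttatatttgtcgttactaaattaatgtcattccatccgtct
CG11050 chr2L:6612672-6612772: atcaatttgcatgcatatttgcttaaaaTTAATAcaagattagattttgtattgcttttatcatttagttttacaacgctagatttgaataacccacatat
CG32772 chrX:4910317-4910417: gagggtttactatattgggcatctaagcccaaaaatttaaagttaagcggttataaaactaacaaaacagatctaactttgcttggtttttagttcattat
CG9837 chr3R:8811625-8811725: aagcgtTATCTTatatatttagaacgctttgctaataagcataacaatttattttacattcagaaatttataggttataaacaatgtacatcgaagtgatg
Trl chr3L:14759450-14759550: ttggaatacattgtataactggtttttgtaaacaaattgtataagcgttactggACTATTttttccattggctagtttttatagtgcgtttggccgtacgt
cno chr3R:5215479-5215579: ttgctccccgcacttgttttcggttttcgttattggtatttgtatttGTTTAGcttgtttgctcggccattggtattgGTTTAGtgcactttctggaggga
Tlk chrX:3742174-3742274: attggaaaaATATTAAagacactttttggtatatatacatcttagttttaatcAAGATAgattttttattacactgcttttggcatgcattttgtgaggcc
SCaMC chr3L:12407116-12407216: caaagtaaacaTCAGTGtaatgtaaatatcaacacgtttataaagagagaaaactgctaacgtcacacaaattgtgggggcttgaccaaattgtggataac

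GC content in these 8 windows ran between 24.8% in the CG11050 window and 42.6% in the cno window. The ush and CG32772 windows held none of the 9 6-mers, and the Tlk window held 3.

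The strongest gene-body peak was also the strongest peak of the whole reproducible set. It lay in the first intron of ush (FBgn0003963), which encodes the U-shaped zinc-finger cofactor of GATA factors, at chr2L:480870-481298. The nearest start, 1394 bp away, was that of cbt, the cabut zinc-finger transcription factor gene, and lay inside the annotated span of ush. The nearest start of ush itself was 4862 bp away. Its signal value, a score made by the authors' peak caller, was 1837 in the pooled list and 572, 586 and 668 in replicates 1, 2 and 3. It ranked 1 in every replicate.

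The next peaks lay in CG11050 and CG32772. The CG11050 peak had a pooled signal of 1350, and 497, 388 and 468 in replicates 1, 2 and 3. The CG32772 peak had a pooled signal of 898, and 350, 262 and 292 in the same replicates. In each replicate both stayed among the 21 highest-ranked peaks.

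Several of the following hosts are well-known regulators. Trl, the gene of GAGA factor, carried a peak of signal 667 in an intron, 1538 bp from a Trl start, with 242, 204 and 215 in replicates 1, 2 and 3. The cno peak (633) lay in the first intron of the gene for Canoe, a protein that links adherens junctions to actin, and its replicate signals were 207, 156 and 267. The Tlk peak (632), in the gene of Tousled-like kinase, had 233, 190 and 214. These 3 peaks ranked between 28 and 67 in every replicate. A peak in Raf (516), which encodes the MAP kinase kinase kinase of receptor tyrosine kinase signalling, had 164, 160 and 186. The Raf peak ranked 65 to 88.

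The rest of the 15 strongest lay in CG9837 (685), SCaMC (624, a mitochondrial carrier of adenine nucleotides), NFAT (623, a transcription factor), CG3726 (542), otp (502, a homeobox gene), for (496, a cGMP-dependent protein kinase), norpA (436, the phospholipase C of phototransduction) and Zw (432, glucose-6-phosphate dehydrogenase). A peak is called supported by a replicate where one of that replicate's top 2475 peaks overlapped it by at least 1 bp, and all 15 were supported by all 3 replicates. Because these replicates had made the reproducible list, their support describes the peaks and is no independent check of them. The otp peak was the exception among them in position and sequence. It lay in a coding exon, 95.2% of the way along the gene, and had a GC content of 61.4% around its summit, with signals of 154, 136 and 215 in replicates 1, 2 and 3.

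**Figure D1:**
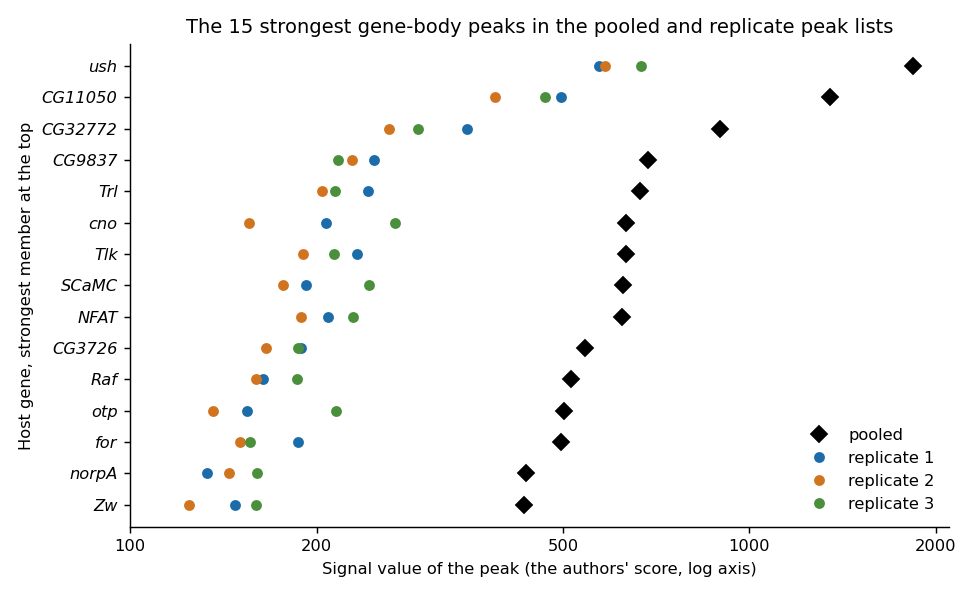
Signal value (the authors' score, log axis) of the 15 strongest gene-body peaks, with the strongest host gene at the top; diamonds are the pooled list and circles the overlapping peak of highest rank in each replicate. The ush peak stands at 1837 in the pooled list and the Zw peak at 432, and each of the 15 was found in all 3 replicates.

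Across all gene-body peaks the pooled signal ran between 92.7 and 1837, with a median of 136 (quartiles 107 and 179). The median was 139 for promoter peaks (quartiles 109 and 202) and 128 for deep gene-body peaks (quartiles 107 and 166). Signals above the median of the whole set were held by 210 of the 415 gene-body peaks (50.6%), against 52.1% of promoter peaks (odds ratio 0.942, 95% confidence interval, CI, 0.758 to 1.17; Fisher's exact test, adjusted p = 0.822 over 6 tests) and 42.5% of deep gene-body peaks (odds ratio 1.39, 1.01 to 1.90; exact adjusted p = 0.137). Neither passed at 0.05. Within the 1237 strongest peaks, 43.3% of gene-body and 52.6% of promoter peaks were above the median of those peaks (odds ratio 0.690, exact adjusted p = 0.0594). With 1 peak kept per host the odds ratio against promoter peaks was 1.08 (exact adjusted p = 0.538). When each replicate's own top 2475 peaks were classed by the same rule, the shares above that list's median were 49.7 ± 3.00% for gene-body peaks, 51.5 ± 0.419% for promoter peaks and 43.4 ± 1.53% for deep gene-body peaks (SD, n = 3). The lists hold no read counts, so depth is unknown, and intervals here cover the counting of peaks only, which are not independent replicates.

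Support by the replicates, which the making of the list favours, is given here to describe the peaks and compare them with the other classes of the same list. Replicates 1, 2 and 3 supported 346, 330 and 332 of the 415 gene-body peaks, or 81.0 ± 2.10% (SD, n = 3). All 3 supported 247 (59.5%), 2 supported 105, 1 supported 57 and none supported 6. Against the full replicate lists, 414, 412 and 414 gene-body peaks were overlapped by some peak. Support by all 3 was found for 58.9% of promoter peaks (odds ratio 1.03, 95% CI 0.822 to 1.28; exact adjusted p = 0.866) and 52.4% of deep gene-body peaks (odds ratio 1.34, 0.975 to 1.83; exact adjusted p = 0.153). Neither difference passed at 0.05, and the interval against promoter peaks still holds odds ratios between 0.822 and 1.28, so equality was not shown.

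Support depended on signal. Of the 138 strongest gene-body peaks, all with a signal of at least 162, 137 were supported by all 3 replicates. Of the 139 weakest, 16 were. The 6 with no support lay in introns of chic (the profilin gene), shep, MSAmiP, Lerp, arg and kirre (an immunoglobulin-domain protein of myoblast fusion), with signals between 93.1 and 97.1. Because support counts only the top 2475 peaks of a replicate, weak peaks fall near that limit by construction. Over the gene-body peaks found in both lists, the replicates' signals had a Spearman rho of 0.63 to 0.64 between pairs, a description over 411 to 413 peaks that share their pooled selection.

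Nearly all gene-body peaks were intronic. There were 397 summits in introns (95.7%), 11 in 3' UTRs, 5 in coding exons and 2 in 5' UTRs. Gene bodies in the same range of distances, 33.2 Mb in all, are 55.6% intron, 32.5% coding exon, 10.9% 3' UTR and 0.968% 5' UTR. The 5 coding-exon peaks lay in otp (502), Pde1c (370, a cyclic nucleotide phosphodiesterase), l(3)mbn (207), CG10357 (138) and bif (118). Those in 5' UTRs lay in Mef2 (153, the muscle transcription factor) and CAP (107). Those in 3' UTRs lay in by, stas, CG7872, CG33307, CG9166, CG8206, CG9837, Hr4, qvr, Tctp and Ppa, with signals between 96.8 and 251.

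The reproducible gene-body peaks were compared with lower-ranked entries at the same kind of position. These were the 6340 low-ranked peaks of the pooled list that met the same position rule and overlapped no reproducible peak. The authors label that list as peaks and background, so its low-ranked entries can be background rather than weak binding. Coding exons make up 32.5% of gene bodies in the same range, near their share of the low-ranked peaks. Coding exons held 1.205% of gene-body peaks against 34.9% of low-ranked peaks (odds ratio 0.0228, 95% CI 0.00941 to 0.0551; Fisher's exact test, adjusted p = 1.01e-64 over 4 tests). The replicates' own lists gave 2.13 ± 0.899% against 34.5 ± 8.99% (SD, n = 3). The odds ratio was 0.0539 without replicate 2 and 0.0442 without replicate 3. Both of these compare replicate 1's top peaks shared with 1 other replicate against replicate 1's own low-ranked peaks. The 417 pooled peaks ranked next, at 2476 to 5000, had 2.16% in coding exons. Set against them alone, the difference had an odds ratio of 0.553 and was not called (exact adjusted p = 0.840).

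Gene-body peaks lay early in their hosts. Among intronic summits, 315 of 397 (79.3%) were in a first intron of some transcript, against 2460 of 3703 low-ranked peaks (66.4%; odds ratio 1.94, 95% CI 1.51 to 2.50; exact adjusted p = 9.53e-08). The replicates gave 79.4 ± 0.900% against 64.0 ± 1.25% (SD, n = 3). Intron 2 held 63 and later introns 19 of the gene-body peaks. The median position along the host was 28.3% of its length for gene-body peaks and 50.05% for low-ranked peaks, and the median host length was 22280 bp against 14154 bp. These medians cover all summits, exonic ones included, and were not tested. A bounded distance from a start is also a smaller share of a longer host. Against the peaks at ranks 2476 to 5000, of which 72.1% of intronic summits were in a first intron, the first-intron difference was not called, with an odds ratio of 1.48 (exact adjusted p = 0.0797).

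Hosts of gene-body peaks often had a promoter peak as well. A reproducible summit within 1000 bp of one of the host's own starts was present for 186 of 415 gene-body peaks (44.8%), against 30.6% of low-ranked peaks (odds ratio 1.84, 95% CI 1.51 to 2.25; exact adjusted p = 8.62e-09). The replicates gave 44.5 ± 1.06% against 29.6 ± 2.09% (SD, n = 3). For deep gene-body peaks the share was 37.3%. Counted by gene, 133 of the 331 hosts (40.2%) had a promoter peak, against 16.2% of the 10083 protein-coding genes with sequence in the distance range. A peak at any start of a gene counted, and these shares were not matched for gene length or number of starts. At ranks 2476 to 5000 the share was 45.1%, and against those peaks the odds ratio was 0.989 (exact adjusted p = 0.945).

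In bands of pooled rank chosen after the values were seen, these properties changed in steps. The coding-exon share was 1.205% in the gene-body peaks, 2.16% in the next band up to rank 5000, 24.0% in that up to rank 10000, 39.0% in that up to rank 20000 and 41.4% beyond. First introns held 79.3%, 72.1%, 70.5%, 67.3% and 60.2% of the intronic summits in the same bands, and a host promoter peak was present for 44.8%, 45.1%, 36.6%, 29.3% and 26.5%. The low share of coding exons extended past the edge of the reproducible set. In the replicates' own lists the coding-exon share at ranks 2476 to 5000 was 2.34% in replicate 1, 21.7% in replicate 2 and 15.5% in replicate 3.

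**Figure D2:**
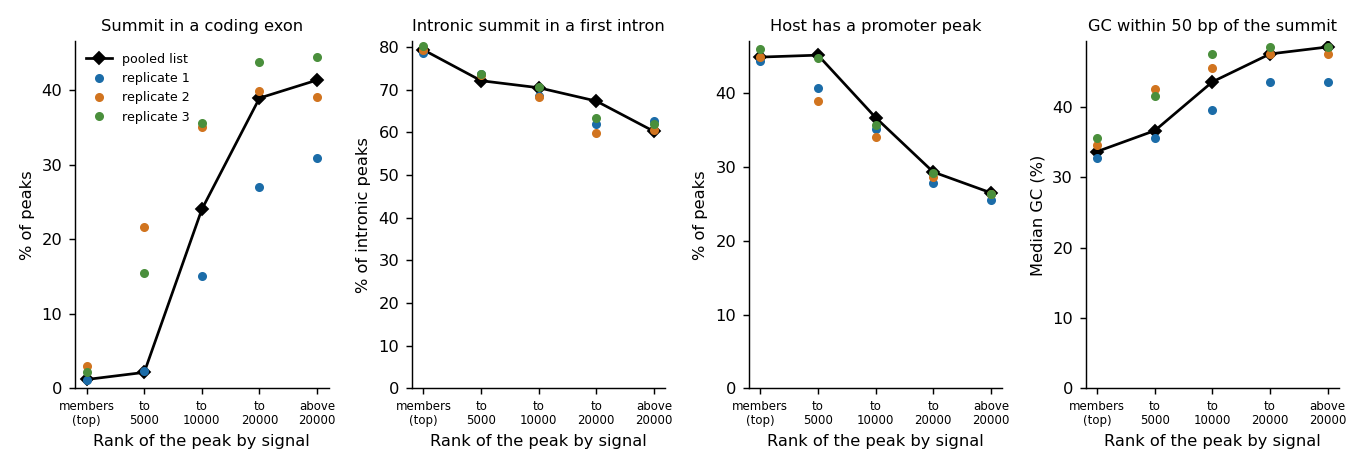
Properties of peaks meeting the position rule by rank band of signal: share in coding exons, share of intronic summits in a first intron, share whose host has a promoter peak, and median GC; diamonds are the pooled list (the leftmost is the 415 gene-body peaks) and circles each replicate's own list. Coding exons hold 1.205% of the gene-body peaks, 2.16% of the next band and 41.4% of the last.

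Noncoding starts were near few gene-body peaks, and no difference from low-ranked peaks was called. Within 1000 bp of the start of a noncoding gene there were 18 of 415 gene-body peaks (4.34%) and 278 of 6340 low-ranked peaks (4.38%; odds ratio 0.989, 95% CI 0.607 to 1.61; exact adjusted p = 1). The replicates' own lists gave 5.13 ± 0.643% against 4.16 ± 0.0894% (SD, n = 3), with odds ratios of 1.24, 1.43 and 1.08 in replicates 1, 2 and 3. The 18 nearest noncoding genes comprised 10 long noncoding RNA genes, 4 antisense RNA genes, 2 snoRNA genes, 1 microRNA gene and 1 other. An annotated transposon held 1 gene-body summit, in CHES-1-like.

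The nearest start was one of the host's own for 360 gene-body peaks (86.7%) and another gene's for 55. In 99 (23.9%) the summit lay upstream of that nearest host start, inside the gene but before an internal promoter. The same was true of 11.1% of low-ranked peaks. In 261 gene-body peaks (62.9%) the summit lay downstream of it, against 62.2% of low-ranked peaks. These positions were not tested.

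Per length of gene body, gene-body peaks and low-ranked peaks alike were most dense near the inner edge of the range. There were 14.9 per Mb in the first bin of 500 bp, up to 1500 bp, and 14.4 per Mb in the next, up to 2000 bp. Beyond that the 6 bins held between 9.83 and 12.2 per Mb. The replicates' own top peaks gave 15.2 ± 1.03 per Mb in the first bin and 11.4 ± 1.52 per Mb in the last, up to 5000 bp (SD, n = 3). Low-ranked peaks of the same position had 222 per Mb in the first bin and 159.9 per Mb in the last. The median distance was 2105 bp. At the limits of the rule, Ndae1 (120) and CG9801 (107) at the first base past 1000 bp and larp (98.4) at 1005 bp were just inside, while peaks in Raf (183) at 999 bp, eas (173) at 998 bp and Tob (167) at 996 bp were just outside. At the far limit NK7.1 (112) at 4981 bp, ush (310) at 4968 bp and cno (112) at 4949 bp were inside, and Mnt (101), Ac13E (132) and tara (213) at 5002, 5008 and 5010 bp were outside.

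**Figure D3:**
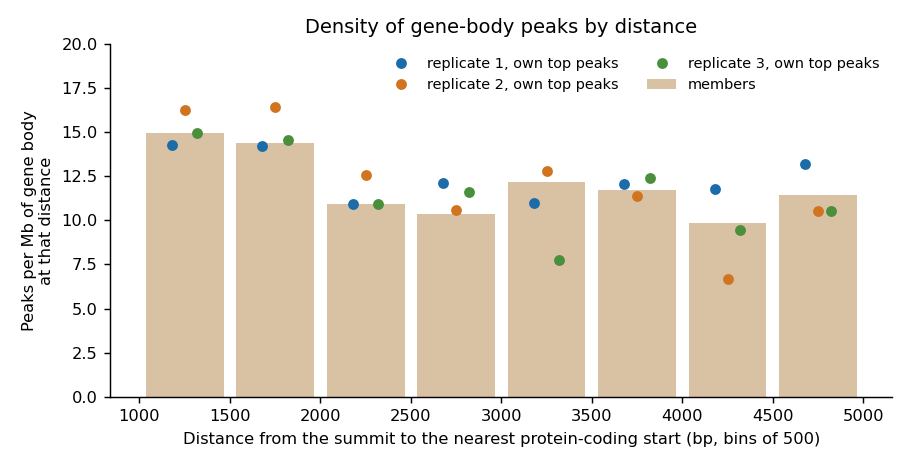
Gene-body peaks per Mb of protein-coding gene body at each distance from the nearest protein-coding start, in bins of 500 bp; bars are the 415 peaks and circles each replicate's own top 2475 peaks classed by the same rule. The first bars stand at 14.9 and 14.4 per Mb and the others between 9.83 and 12.2.

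X carried 103 gene-body peaks (24.8%), 15.8 per Mb of eligible sequence, while the autosomal arms 2L, 2R, 3L and 3R carried between 10.7 and 12.6 per Mb. Arm 4 carried none in 0.384 Mb. X makes up 19.6% of the eligible sequence and held 15.6% of low-ranked peaks of the same position. It held 24.2% of deep gene-body peaks and 16.5% of promoter peaks. In the replicates' own lists X held 23.8 ± 1.37% of the gene-body peaks (SD, n = 3). No test was made between arms.

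The 415 peaks formed 405 separate regions, because 20 of them overlapped another in pairs, and they lay in 331 host genes. There were 59 hosts with 2 or more. Another reproducible summit lay within 2000 bp of 131 gene-body peaks (31.6%), and the nearest such summit was a promoter peak for 55 of the 131.

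CHES-1-like, a forkhead transcription factor gene on X, held 7 gene-body peaks and 3 promoter peaks in 27048 bp. The gene-body peaks had signals of 261, 229, 227, 227, 106, 103 and 93.9, and the 4 strongest were supported by all 3 replicates. Of these, the peak at chrX:7702980-7703399, with a signal of 227, had its summit in an annotated jockey transposon. Those 4 lay between 2347 and 10931 bp from the gene's start, interleaved with the promoter peaks, and the 3 weaker ones between 16467 and 18519 bp.

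On arm 2R shn, which encodes the Schnurri zinc-finger protein that acts in BMP signalling, held 7 gene-body peaks, with signals of 206, 137, 134, 128, 125, 123 and 102. Of these, 5 lay within the stretch 35679 to 37987 bp from the gene's start. Overlapping pairs are among them, so the 7 peaks are fewer separate regions. All but the weakest were supported by all 3 replicates.

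The remaining 3 hosts with 4 peaks each were ush, Tlk and px. In ush the signals were 1837, 310, 207 and 128, all supported by all 3 replicates, and the strongest lay 861 bp from its neighbouring reproducible summit. In Tlk they were 632, 204.9, 179 and 99.7, the last supported by 2 replicates. In px, a gene of wing vein patterning, they were 139, 116, 100.02 and 99.8. A promoter peak of 1482 in px, at rank 3 of the set, lay 47759 bp from the gene's start. The gene-body peaks lay 51131, 13787, 45979 and 50377 bp from it in the same order, so the second was far from the promoter peak. Of the 4, 1 was supported by all 3 replicates.

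NK7.1 itself held 2 gene-body peaks, in an intron at chr3R:14356595-14357014 with a signal of 112 and at chr3R:14357439-14357858 with a signal of 102. Each was supported by 2 replicates.

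**Figure D4:**
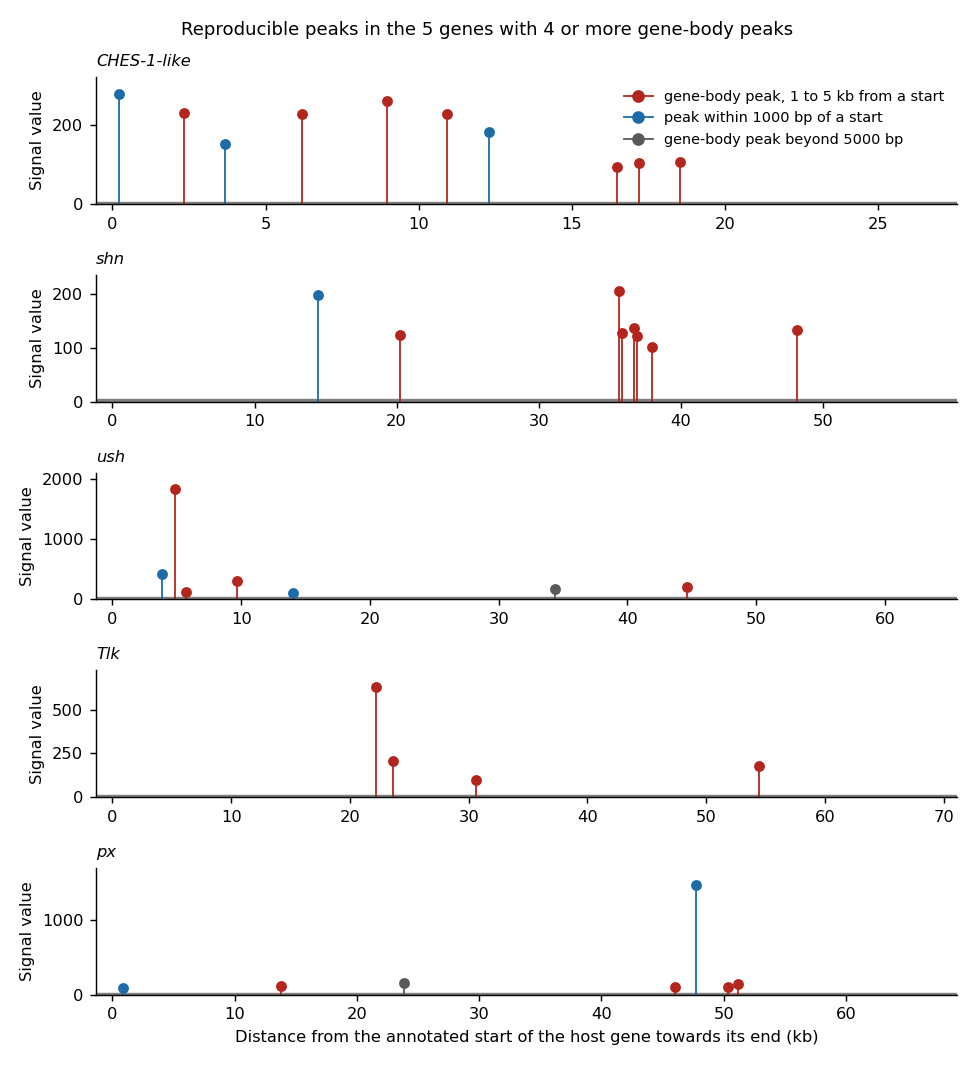
Reproducible peaks along the 5 genes with 4 or more gene-body peaks; the horizontal axis is the distance from the annotated start towards the end of the gene (kb) and the height is the signal value, on a separate scale for each gene. Gene-body peaks (red) reach 1837 in ush and 261 in CHES-1-like, and the tallest peak in px is a promoter peak (blue) of 1482.

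Gene-body peaks were counted in 11 lists of genes of known function. Overlapping peaks, as in shn of the BMP list and mbc of the actin list, were each counted, here and over all genes. Peak counts and densities can therefore exceed those of separate regions. Of the 10083 protein-coding genes with sequence in the distance range, 331 (3.28%) hosted a gene-body peak, at 11.7 peaks per Mb of such sequence summed over genes. The genes of the lists tend to be longer than others, so the density per Mb stands beside each share. The lists were chosen with earlier results of these data known, no test was made of them, and hosts of a peak need not be its targets.

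Receptor tyrosine kinase signalling stood at the top of the lists by density. Of 28 EGF and FGF receptor pathway genes, 6 (21.4%) hosted 9 peaks, or 41.9 per Mb. They were Raf (516), aos (337, the Argos antagonist of the EGF receptor), aop (284, the Yan repressor), S (244, the Star protein that helps export EGF ligands), ths (242, an FGF ligand) and sty (93.3, the Sprouty antagonist). The peaks named for aos, aop, S and ths were each supported by all 3 replicates, and that of sty by 1. Raf also held peaks of 215 and 98.4, the latter supported by 2 replicates, and S a peak of 173. In the Wnt, Hedgehog and BMP pathways, 7 of 42 genes (16.7%) hosted 13 peaks, or 38.7 per Mb, of which shn held 7. The others were Notum (176, a secreted Wnt-inactivating enzyme), wit (167, a BMP type II receptor), ptc (142, the Hedgehog receptor), sog (138, a BMP antagonist), arr (106, a Wnt co-receptor) and dally (96.5, a heparan sulfate proteoglycan). Kinase and stress pathways had 7 of 39 genes (17.9%) and 34.0 per Mb, led by Mekk1 (181), kay (174, the Fos protein) and msn, a kinase upstream of Jun kinase (166).

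Regulators of chromatin and of patterning were also above all genes, by share and by density. Of 46 chromatin regulator genes, 7 (15.2%) hosted 1 peak each, or 26.4 per Mb. These were Trl (667), kis (213), ph-p (206, of the Polycomb group), psq (160), trx (155), jing (118) and osa (97.1). Of 78 transcription factor genes of patterning and organ formation, 11 (14.1%) hosted 15 peaks, or 24.98 per Mb, led by ush (1837), aop (284) and zfh1 (251). Mef2, rib, sim and CrebB followed with signals of 161, 158, 158 and 132. Actin and muscle structure genes had 5 of 43 (11.6%) and 23.2 per Mb, led by tsr (348, the cofilin gene).

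Other lists were nearer to the density of all genes or below it. By share, the Notch, ecdysone and axon guidance lists were also above the 3.28% of all genes. Their shares were close to the 14.1% of the patterning list. The Notch pathway had mam (212, the Mastermind coactivator) and neur (203, a ubiquitin ligase that acts on Delta) among 16 genes (12.5%, 19.9 per Mb). Ecdysone response and nuclear receptor genes had 3 of 24 (12.5%, 14.7 per Mb), led by Hr4 (141). Axon guidance and adhesion genes had 7 of 51 (13.7%, 14.6 per Mb), led by kirre (240), mew (215, an integrin subunit) and NetB (183, a netrin). Of 39 genes of neuronal excitability and the synapse, ChAT (165, choline acetyltransferase) was the 1 host (2.56%, 2.77 per Mb). None of 49 cytoplasmic ribosomal protein genes hosted a gene-body peak, but these short genes offered only 0.0284 Mb in the distance range.

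Base composition dipped sharply at the summits. Mean GC in 51 bp was 34.5% at the summit of gene-body peaks, 43.5% at 250 bp before it and 43.6% at 250 bp after it. Deep gene-body peaks had 34.1% at the summit and 45.3% and 43.7% at the same distances. Promoter peaks had 37.5% at the summit, 39.5% before and 45.8% after, a smaller difference on the side before the summit. Low-ranked peaks of the same position, taken over all ranks, had no dip, with 46.4% at the summit against 45.6% and 44.8%. Their GC differed by rank. The median within 50 bp of the summit was 33.7% in the gene-body peaks, 36.6% in the band up to rank 5000, 43.6% in that up to rank 10000, 47.5% in that up to rank 20000 and 48.5% beyond. The 33.7% at gene-body summits stood against a median of 39.6% in a window 500 bp towards the end of the host. The replicates' own gene-body peaks gave 34.3 ± 1.51% at summits against 40.3 ± 0.572% in those flanks (SD, n = 3). GC was lower at the summit than in the flank for 275 of 415 gene-body peaks (66.3%).

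AT-rich summits, with GC below the median of the whole set, made up 58.1% of gene-body peaks, against 44.4% of promoter peaks (odds ratio 1.73, 95% CI 1.39 to 2.16; exact adjusted p = 5.96e-06) and 59.9% of deep gene-body peaks (odds ratio 0.926, 0.674 to 1.27; exact adjusted p = 0.822). In the replicates' own lists the shares were 57.5 ± 2.41% for gene-body peaks, 59.1 ± 3.10% for deep ones and 46.1 ± 1.04% for promoter peaks (SD, n = 3). The difference from promoter peaks did not pass the threshold in the smaller lists made without replicate 2 (odds ratio 1.24, exact adjusted p = 0.303) or without replicate 3 (odds ratio 1.30, exact adjusted p = 0.293). Both lists hold replicate 1's top peaks shared with 1 other replicate, in place of the reproducible list.

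**Figure D5:**
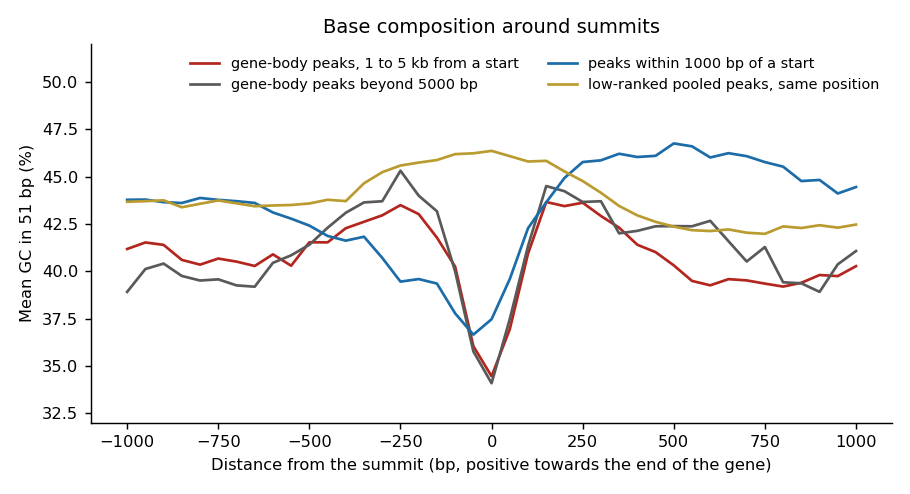
Mean GC content in 51 bp windows around summits, with positive distances towards the end of the gene and an axis that does not start at 0; lines are gene-body peaks, deep gene-body peaks, promoter peaks and low-ranked peaks of the same position. Gene-body peaks fall to 34.5% at the summit, while low-ranked peaks of all ranks together stand at 46.4%.

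No homeodomain word passed as more frequent at the summits of gene-body peaks than in their flanks. TAATTG, a homeodomain core, was found on either strand in 48 of 415 summit windows (11.6%) and 49 flank windows (11.8%), and TAATTA in 35 (8.43%) and 29 (6.99%). CAAGTG, the core known for NK-2 class homeodomains, was found in 21 (5.06%) and 18 (4.34%). By the exact McNemar test the adjusted p over 9 words was 1 for each. Of the other words GATAA, the core bound by GATA factors, came nearest, at 126 (30.4%) against 98 (23.6%), with an odds ratio of 1.37 (95% CI 1.01 to 1.86; exact adjusted p = 0.395). GAGAG, bound by GAGA factor, was found in 42 (10.1%) against 58 (14.0%; exact adjusted p = 0.474). CACACA was found in 43 summit and 48 flank windows, CAGGTA in 10 and 12 and CACGTG in 2 and 7, and TATCGATA in no summit or flank window. None of the 9 words passed, and GATAA alone had an unadjusted exact p under the threshold (p = 0.0439). With the flank taken towards the host's start, GATAA (exact adjusted p = 0.0168) and GAGAG (exact adjusted p = 0.00888) passed, the first higher and the second lower at summits. TAATTA was then in 8.43% of summits and 4.58% of flanks, a ratio of 2 between windows that held it at the summit alone and in the flank alone, against 1.21 with the flank towards the host's end, and it did not pass (exact adjusted p = 0.0879).

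Capitals in the next windows mark homeodomain and other words in the strongest intronic window that held each, except for words whose strongest holder is printed above. The SCaMC window holds GAGAG and CACACA, CG11050 holds GATAA as its reverse complement, and cno holds CAAGTG in the same way. The Pits window marks TAATTG as its reverse complement and the NFAT window TAATTA, while the Nep1 window marks CAGGTA as its reverse complement and the Rbfox1 window CACGTG.
Pits chrX:12579658-12579758: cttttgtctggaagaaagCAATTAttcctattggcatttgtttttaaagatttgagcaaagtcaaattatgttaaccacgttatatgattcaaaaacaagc
NFAT chrX:13640476-13640576: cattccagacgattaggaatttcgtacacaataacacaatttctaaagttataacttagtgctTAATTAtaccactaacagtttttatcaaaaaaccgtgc
Nep1 chrX:6097729-6097829: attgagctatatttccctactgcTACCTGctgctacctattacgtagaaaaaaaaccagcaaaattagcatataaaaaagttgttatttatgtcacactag
Rbfox1 chr3L:10519085-10519185: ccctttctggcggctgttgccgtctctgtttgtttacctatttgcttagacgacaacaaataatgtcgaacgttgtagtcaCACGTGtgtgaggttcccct

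Against promoter peaks, 3 of the 9 words differed. GATAA was at 30.4% of gene-body summits and 22.02% of promoter summits (odds ratio 1.54, 95% CI 1.21 to 1.97; Fisher's exact test, adjusted p = 0.00250 over 9 words). CACACA was at 10.4% and 6.75% (odds ratio 1.60, 1.10 to 2.32; exact adjusted p = 0.0473). In the flanks of the gene-body peaks GATAA was at 23.6% and CACACA at 11.6%, so CACACA was no more frequent at their summits than beside them. TATCGATA, the word of the promoter factor DREF, was at 0 of 415 gene-body summits and 42 of 1526 promoter summits (2.75%; exact adjusted p = 6.10e-04). Deep gene-body peaks held GATAA at 27.0%, CACACA at 6.35% and TATCGATA at none. In the smaller lists made without 1 replicate the count of words past the threshold was 0 without replicate 1 and 1 without replicate 2 or replicate 3, and GATAA and CACACA passed in none of the 3. GATAA was at 25.4 ± 1.08% of summits in the replicates' own gene-body peaks (SD, n = 3).

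A scan of all distinct 6-mers, counting both strands together, found 9 (0.433%) more frequent at the summits of gene-body peaks than in their flanks and 6 (0.288%) less frequent. TATTGA led, in 61 summit windows (14.7%) and 16 flank windows (3.86%; odds ratio 4, 95% CI 2.24 to 7.58; exact McNemar test, adjusted p = 3.30e-04 over all 6-mers). The replicates' own gene-body peaks gave 12.9 ± 1.73% of summits and 6.58 ± 0.545% of flanks (SD, n = 3). ATATTA was in 85 and 38 windows (exact adjusted p = 0.00200), TATTAA in 78 and 38 (exact adjusted p = 0.0162), AATAGT in 50 and 19 and CTAAAC in 28 and 4. Of the 9, 7 have at most 2 G or C.

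Some called words resemble each other. ACAGTG was in 50 summit windows (12.05%) and 14 flank windows (3.37%; odds ratio 3.77, 95% CI 2.01 to 7.57; exact adjusted p = 0.00334). ACTGTA was in 44 and 14, and CACTGA in 40 and 13 (exact adjusted p = 0.00827 and 0.0408). The words overlap in sequence, as in the mnb window printed further on, where 1 run of capitals holds both of the first pair. In the replicates' own gene-body peaks ACAGTG was at 11.8 ± 1.67% of summits and 4.10 ± 1.36% of flanks, and ACTGTA at 9.40 ± 0.884% and 3.15 ± 0.890% (SD, n = 3). At promoter and deep gene-body summits ACAGTG was found in 8.98% and 6.75%, and in 5.02% of low-ranked ones.

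AAGATA was in 64 summit windows (15.4%) and 28 flank windows (6.75%; odds ratio 2.44, 95% CI 1.51 to 4.06; exact adjusted p = 0.0247). Its share was 8.33% at deep gene-body summits, 6.82% at promoter summits and 4.98% at low-ranked summits of the same position. In the replicates it was at 12.1 ± 1.33% of gene-body summits and 6.70 ± 2.32% of flanks (SD, n = 3). These shares in other classes were looked up after the word had been called, and their differences were not tested.

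The 6 less frequent words all have at least 3 G or C. GGGGGA was in 4 summit windows and 28 flank windows, and GGGCTA in 0 and 14. ATGGGG and CCCATC were each in 3 and 23, GGCGGA in 2 and 17 and CGCCCC in 5 and 25. Both groups of words therefore go with the lower GC of the summits, and their part in it was not tested.

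At least 1 of the 9 words was in 285 of the 415 summit windows (68.7%), against 33.0% of flank windows, a contrast fixed by how the words were chosen. Windows with the most of them are shown with the words in capitals, again from dm6, plus strand. Btk, the gene of a Tec family kinase, held 6 of the 9, sima, the hypoxia-inducible factor alpha gene, held 5, and mnb, a DYRK family kinase gene, and REPTOR, a transcription factor gene downstream of TORC1, held 4 each.
Btk chr2L:8292527-8292627: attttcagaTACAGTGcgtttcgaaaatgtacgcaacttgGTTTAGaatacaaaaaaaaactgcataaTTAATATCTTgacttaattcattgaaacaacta
sima chr3R:30061266-30061366: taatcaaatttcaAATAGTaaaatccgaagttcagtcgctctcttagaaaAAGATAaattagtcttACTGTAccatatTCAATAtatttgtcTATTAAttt
mnb chrX:17880446-17880546: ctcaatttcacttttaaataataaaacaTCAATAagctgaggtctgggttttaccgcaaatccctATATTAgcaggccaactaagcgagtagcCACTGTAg
REPTOR chr3R:24567532-24567632: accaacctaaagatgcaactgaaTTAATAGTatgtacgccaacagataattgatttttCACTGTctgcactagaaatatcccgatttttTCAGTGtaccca

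The number of called 6-mers depended on the list. It was 0, 1 and 14 more frequent words without replicates 1, 2 and 3, whose lists hold 288 to 296 gene-body peaks, and 3 of the 14 were among the 9. With 1 peak kept per host gene, a setting chosen after seeing the data that leaves 331 peaks, 2 more frequent words were called, both among the 9, and 0 less frequent ones, against 6. The 1237 strongest peaks of the set, with 210 gene-body peaks, gave none.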

How the data were processed

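ChIP-seq peak lists of 3 replicates, 1 pooled list and 1 reproducible list on dm6 were used. The authors called peaks per replicate and on pooled alignments against a control and thresholded the reproducible list by the irreproducible discovery rate, per the listings deposited with the files. The sources used here name neither the aligner nor the caller. The signal value deposited for each peak is the caller's own score, and the deposited −log10 q-value was capped (218 of the 415 gene-body peaks held the largest value, 3.41), so ranks use signal. Depth is unknown.

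Gene models were Ensembl 115 and sequence RefSeq, both of Release 6. Summits are the peak start plus the deposited offset. Where genes overlap, the host is the shortest. Distances used every annotated transcript start, and a summit in any coding exon counted as such before UTR or intron. Low-ranked peaks were the 23895 pooled peaks overlapping no reproducible peak, from a list that the authors label as peaks and background. Gene lists matched by symbol or unique synonym, with 8 of 504 entries unmatched.

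Fisher's exact test and the exact McNemar test, two-sided, were Benjamini-Hochberg adjusted within 4 low-ranked comparisons, 6 comparisons within the set, 9 words and all distinct 6-mers, at a threshold of 0.05, in Python 3.11.15 with NumPy 2.4.6 and SciPy 1.17.1. Flanks lay 500 bp towards the end of the host. The tests were checked on simulated data with planted differences. Simulated summit and flank windows shared 1 base composition, unlike the real ones, so calls under a GC difference were not checked. The peaks, words and lists were chosen with earlier results of these data known. Keeping 1 peak per host in the word counts was added after seeing the data. Named peaks were the 15 strongest, those in genes with at least 4, the strongest of each gene list, those in exons, at the distance limits or without support. Alternatives left out each replicate, kept the 1237 strongest peaks, narrowed the range to 3000 bp, used all gene starts, kept 1 peak per host, and changed windows, flanks, overlaps and comparison ranks.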

Additional observations from a re-analysis of the deposited data

How the results depend on the processing

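Against the pooled peaks at ranks 2476 to 5000, in place of all low-ranked peaks, the odds ratio was 0.553 for coding exons and 1.48 for first introns, both short of the threshold, and 0.989 for a host promoter peak, the reverse direction. Lists made without 1 replicate held 1 remaining replicate's top peaks shared with the other, in place of the reproducible list. In them the odds ratio for AT-rich summits against promoter peaks was 1.24 to 1.52. The number of words differing from promoter peaks was 0 to 1. The 6-mers more frequent at summits were 0 to 14 and those less frequent 0 to 8. With windows of 25 bp, 1 word differed from flanks, 1 from promoter peaks, and 1 and 0 6-mers were more and less frequent. With windows of 100 bp, 1 word differed from promoter peaks and 31 and 16 6-mers passed. With flanks towards the host's start, 2 words passed, and 25 and 13 6-mers. The 1237 strongest peaks gave 0 and 0 6-mers, the range to 3000 bp 3 and 0, 1 peak per host gene (chosen after seeing the data) 2 and 0, and all gene starts 10 less frequent. Of 122 recomputed main values, 92 kept their side of the threshold, or a count within 1.5 times. These include odds ratios that crossed 1 with neither value past the threshold. For AT-rich summits against deep gene-body peaks, the odds ratio was 0.926 in the main setting and 1.39 without replicate 1. Smaller lists hold fewer peaks. For other changes the cause was not tested. No paired analysis was possible because the samples form 1 group. Depth is unknown, so its effect on weak peaks could not be judged.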
